A study of Mus musculus with 28 samples.

Results

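The genes described here are Procr and 9 genes by which mural cells of blood vessels are recognised, in cells sorted from the mouse mammary gland. Of the 50600 genes in the deposited counts, 10 were chosen by symbol: Procr, the pericyte genes Rgs5, Cspg4, Mcam, Kcnj8 and Abcc9, and the smooth muscle genes Acta2, Myh11, Tagln and Cnn1. Each symbol matched a single Ensembl ID once the version was dropped. No measured value was used in the choice of these symbols, although earlier results of these data were known.

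Pericytes wrap the capillaries and vascular smooth muscle cells the larger vessels, and together they are called mural cells. Pericytes are recognised by potassium channel and receptor genes and carry little contractile protein, whereas smooth muscle cells are rich in actin, smooth muscle myosin and the proteins that bind them, many of them controlled by serum response factor and its partner myocardin. Procr encodes the endothelial protein C receptor, which presents protein C to thrombomodulin and thrombin, and it has also been used as a marker of mammary stem cells and of vascular progenitors. In the mammary gland several of these genes, Acta2 and Myh11 among them, are also expressed by basal (myoepithelial) cells, which are a different cell kind.

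Cells came from 7 adult female PdgfrαCre R26mTmG mice of 10 to 12 weeks, of which 4 were untreated and 3 received estrogen plus progesterone (E+P). Hormone was given for 14 days as implanted pellets (estradiol at 0.14 mg, progesterone at 14 mg), going by a methods sentence about wild-type animals. In this cross the Pdgfrα promoter drives a Cre that is active from development on, and all 8 groups carry both alleles: cells that have expressed Cre, or that descend from such cells, are GFP+, and all other cells keep tdTomato. GFP therefore records past as well as present Pdgfrα expression, and tdTomato+ marks only the absence of that history. Each mouse gave GFP+ and tdTomato+ cells from the stromal (CD49f- EpCAM-) and the luminal (CD49f lo EpCAM+) gate after depletion of CD31, CD45 and Ter119, so 28 libraries fall into 8 groups of 4 untreated or 3 E+P libraries. Library totals ran from 8623383 to 24583803 counts, at which 3 counts equal 0.122 to 0.348 CPM (counts per 1000000 counts of a library); this floor covers counting error only.

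The tdTomato+ stroma is not a pure mural fraction, and this touches every comparison below. The summed level of 16 skeletal muscle genes ran from 4913 to 42657 CPM over its 7 libraries, against 34.0 to 49.4 CPM in GFP+ stroma. The summed level of 14 endothelial genes ran from 293 to 591 CPM there and from 150 to 280 CPM in GFP+ stroma, with Pecam1 at 6.504 to 53.6 CPM and Cdh5 at 10.1 to 108 CPM in tdTomato+ stroma. Fibroblast genes summed to 1492 to 5589 CPM in tdTomato+ and to 28210 to 52540 CPM in GFP+ stroma. Genes of basal cells summed to 48.6 to 154.5 CPM in tdTomato+ and to 8.71 to 50.4 CPM in GFP+ stroma. Of 8 tested, 3 were called higher in tdTomato+ stroma, beside 21.3% of all genes tested. Lgr5 was among these 3, at a log2 fold change of 3.66 ± 0.79 (SE, n = 7). The basal keratins Krt14 and Krt5 reached at most 4.37 and 1.68 CPM in tdTomato+ stroma. The part of basal cells in the stromal levels of Acta2 and Myh11 was not tested. Pdgfra itself was at 35.3 to 273 CPM in tdTomato+ and at 1822 to 2455 CPM in GFP+ stroma. In these bulk samples, fewer cells of a type and less RNA per cell cannot be told apart.

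The RefSeq sequences before the start sites of these genes are shown for the members on which the pattern between single libraries turns. They are pericyte genes that rose and fell together and the actin gene that went the other way. That pattern rested largely on untreated mice 1 and 4. RefSeq held the 250 bases before the start of 8 of the 10 genes on GRCm38.p6, and bases lying in a GENCODE exon were left out. Kcnj8 and Abcc9 are neighbours on the minus strand of chromosome 6, with 16247 bases between them. In capitals is the palindrome TATATA, which lies 30 to 25 bases before the start of Rgs5.
Rgs5, chr1:169655251-169655500, plus strand: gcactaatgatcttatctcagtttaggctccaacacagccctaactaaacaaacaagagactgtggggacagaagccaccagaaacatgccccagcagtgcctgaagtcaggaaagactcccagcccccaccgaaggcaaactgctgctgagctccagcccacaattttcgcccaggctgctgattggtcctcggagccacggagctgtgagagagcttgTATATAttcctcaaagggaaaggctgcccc
Kcnj8, chr6:142571615-142571864, minus strand: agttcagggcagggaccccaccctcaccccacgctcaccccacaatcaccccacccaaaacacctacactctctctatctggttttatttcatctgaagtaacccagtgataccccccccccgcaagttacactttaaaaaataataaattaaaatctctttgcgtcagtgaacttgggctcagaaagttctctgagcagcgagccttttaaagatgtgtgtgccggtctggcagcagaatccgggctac
Abcc9, chr6:142702316-142702524, minus strand: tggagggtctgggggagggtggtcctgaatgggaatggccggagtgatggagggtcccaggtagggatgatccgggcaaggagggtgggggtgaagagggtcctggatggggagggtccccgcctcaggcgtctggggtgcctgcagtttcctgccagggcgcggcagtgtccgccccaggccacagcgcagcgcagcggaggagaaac

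The CArG box, the element bound by serum response factor, was searched in the same 250 bases on both strands. An exact box stood in the window of 0 of the 8 genes and in 1.48% of 32536 windows over all genes. Acta2, which encodes smooth muscle actin, held a pair of boxes with 1 mismatch each in the A/T core, and 7.23% of all windows hold at least 1 such box. They are shown in capitals with 10 bases to either side. In RefSeq they lie 84 to 75 and 34 to 25 bases before the start, while the longer GENCODE model places both in the first exon.
Acta2, chr19:34255438-34255467, minus strand: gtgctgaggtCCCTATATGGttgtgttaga
Acta2, chr19:34255388-34255417, minus strand: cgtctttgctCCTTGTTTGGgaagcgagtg
The windows of Rgs5, Kcnj8, Abcc9, Procr, Cspg4, Mcam and Cnn1 held no exact box and none with 1 mismatch in the A/T core. Boxes with a mismatch in the outer CC or GG were not searched. TATATA occurred in 5.01% of all windows. These matches describe letters in a window and not binding.

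To learn which stromal subset carries these genes, tdTomato+ and GFP+ stroma were compared. All 10 genes were higher in tdTomato+ stroma in each of the 7 mice, by 4.91-fold for Cspg4 to 183-fold for Rgs5. In the edgeR quasi-likelihood test, 10 of 10 passed an adjusted p of 0.01, beside 42% of 17783 genes called in this comparison with 21.3% higher and 20.6% lower in tdTomato+ stroma. Cnn1, at 0 to 0.642 CPM in GFP+ stroma, is counted although it passed the filter on low counts only through tdTomato+ stroma. The median log2 fold change was 5.35 for the 10 genes and 0.0104 over all genes tested. The exact sign-flip test over the 7 mice gave p = 0.0156 for each gene, which is the smallest p that 7 pairs can give.

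Procr (chromosome 2, 155751117 to 155755471, plus strand) stood at 817, 1173, 1319 and 1726 CPM in the tdTomato+ stroma of untreated mice 1 to 4. It stood at 1314, 1098 and 988 CPM in the 3 E+P mice. In GFP+ stroma it ran from 30.2 to 68.75 CPM over the 7 mice. The lowest tdTomato+ library was thus 11.9-fold above the highest GFP+ library, and the log2 fold change was 4.59 ± 0.18 (SE, n = 7 mice, edgeR adjusted p = 5.7e-12).

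Rgs5 (chromosome 1, 169655501 to 169695813, plus strand), a regulator of G-protein signalling by which pericytes are commonly recognised, separated the subsets most. It was at 1397, 2407, 1687 and 2924 CPM in the tdTomato+ stroma of the untreated mice and at 2371, 2370 and 2128 CPM in the E+P mice. In GFP+ stroma the range was 8.61 to 16.4 CPM, and the log2 fold change was 7.52 ± 0.25 (SE, n = 7, edgeR adjusted p = 3.4e-12). Mcam (chromosome 9, 44134469 to 44142727, plus strand), the adhesion molecule CD146, differed 90.9-fold. It ran from 120 to 190 CPM in tdTomato+ and from 0.550 to 4.01 CPM in GFP+ stroma, a log2 fold change of 6.51 ± 0.30 (SE, n = 7, edgeR adjusted p = 4.8e-10).

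Kcnj8 (chromosome 6, 142564837 to 142571614, minus strand) and Abcc9 (chromosome 6, 142587862 to 142702315, minus strand) encode the pore Kir6.1 and the sulphonylurea receptor SUR2 of the vascular ATP-sensitive potassium channel. Kcnj8 was at 116, 233, 167 and 306 CPM in the untreated and at 148, 199 and 159 CPM in the E+P tdTomato+ stroma, against 2.69 to 13.6 CPM in GFP+ stroma. Abcc9 was at 664, 1001, 813 and 1294 CPM in the untreated and at 804, 975 and 734 CPM in the E+P libraries, against 56.6 to 179 CPM in GFP+ stroma. The receptor gene was thus well above the floor in GFP+ cells too, and its log2 fold change of 3.34 ± 0.20 (SE, n = 7) was smaller than the 4.99 ± 0.36 of Kcnj8. The other channel of this kind uses Kcnj11 and Abcc8, which reached at most 9.98 and 9.69 CPM in tdTomato+ stroma.

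Cspg4 (chromosome 9, 56865033 to 56899870, plus strand), the proteoglycan NG2, set the subsets apart least. It was at 113, 122, 113 and 58.1 CPM in the untreated and at 115, 121 and 109 CPM in the E+P tdTomato+ stroma, and at 12.2 to 30.4 CPM in GFP+ stroma. The groups did not overlap, the lowest tdTomato+ library being 1.91-fold above the highest GFP+ library. The log2 fold change was 2.29 ± 0.18 (SE, n = 7, edgeR adjusted p = 2e-08).

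Among the smooth muscle genes, Myh11 (chromosome 16, 14194535 to 14291372, minus strand), the smooth muscle myosin heavy chain, was the most abundant in CPM. It was at 5090, 3464, 2314 and 1332 CPM in the untreated and at 2130, 1673 and 2076 CPM in the E+P tdTomato+ stroma, against 14.03 to 44.2 CPM in GFP+ stroma. Its log2 fold change was 6.61 ± 0.38 (SE, n = 7, edgeR adjusted p = 1.5e-08). Untreated mouse 1 was highest and untreated mouse 4 lowest, the reverse of the order in Procr, Rgs5, Kcnj8 and Abcc9.

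Acta2 (chromosome 19, 34241090 to 34255590, minus strand) was at 1120, 657, 573 and 251 CPM in the untreated and at 494, 366 and 530 CPM in the E+P tdTomato+ stroma. In GFP+ stroma it lay between 4.16 and 20.05 CPM, and the log2 fold change was 5.91 ± 0.45 (SE, n = 7). The protein of Acta2 is nearly identical to that of the skeletal muscle actin Acta1. How far their RNA sequences are alike was not examined. Acta1 stood at 514 to 8253 CPM in the same libraries, or 1.70 to 22.5 counts for each count of Acta2. How any reads shared by the actins were divided is not given in the sources used here, so the Acta2 level is uncertain to that extent. The ratio of Acta2 to Myh11 counts lay between 0.188 and 0.255 over the 7 libraries. The part of Acta1 reads in the Acta2 level was not tested.

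Tagln (chromosome 9, 45929619 to 45936058, minus strand), the actin-binding transgelin, ran from 180 to 464 CPM in tdTomato+ and from 3.67 to 14.1 CPM in GFP+ stroma. Cnn1 (chromosome 9, 22099216 to 22109630, plus strand), the basic calponin of contractile smooth muscle, was by far the lowest member, at 9.19 to 18.65 CPM in tdTomato+ stroma and at 0 to 0.642 CPM in GFP+ stroma. Their log2 fold changes were 5.33 ± 0.33 and 5.37 ± 0.43 (SE, n = 7). Tagln shares 1241 exon bases with the antisense gene Gm48529 and 108 with Pcsk7 on the opposite strand. Before scaling these stood at 5.86 to 15.2 and 15.3 to 25.8 CPM in tdTomato+ stroma, and the strand setting of the counting is not given in the sources used here.

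**Figure D1:**
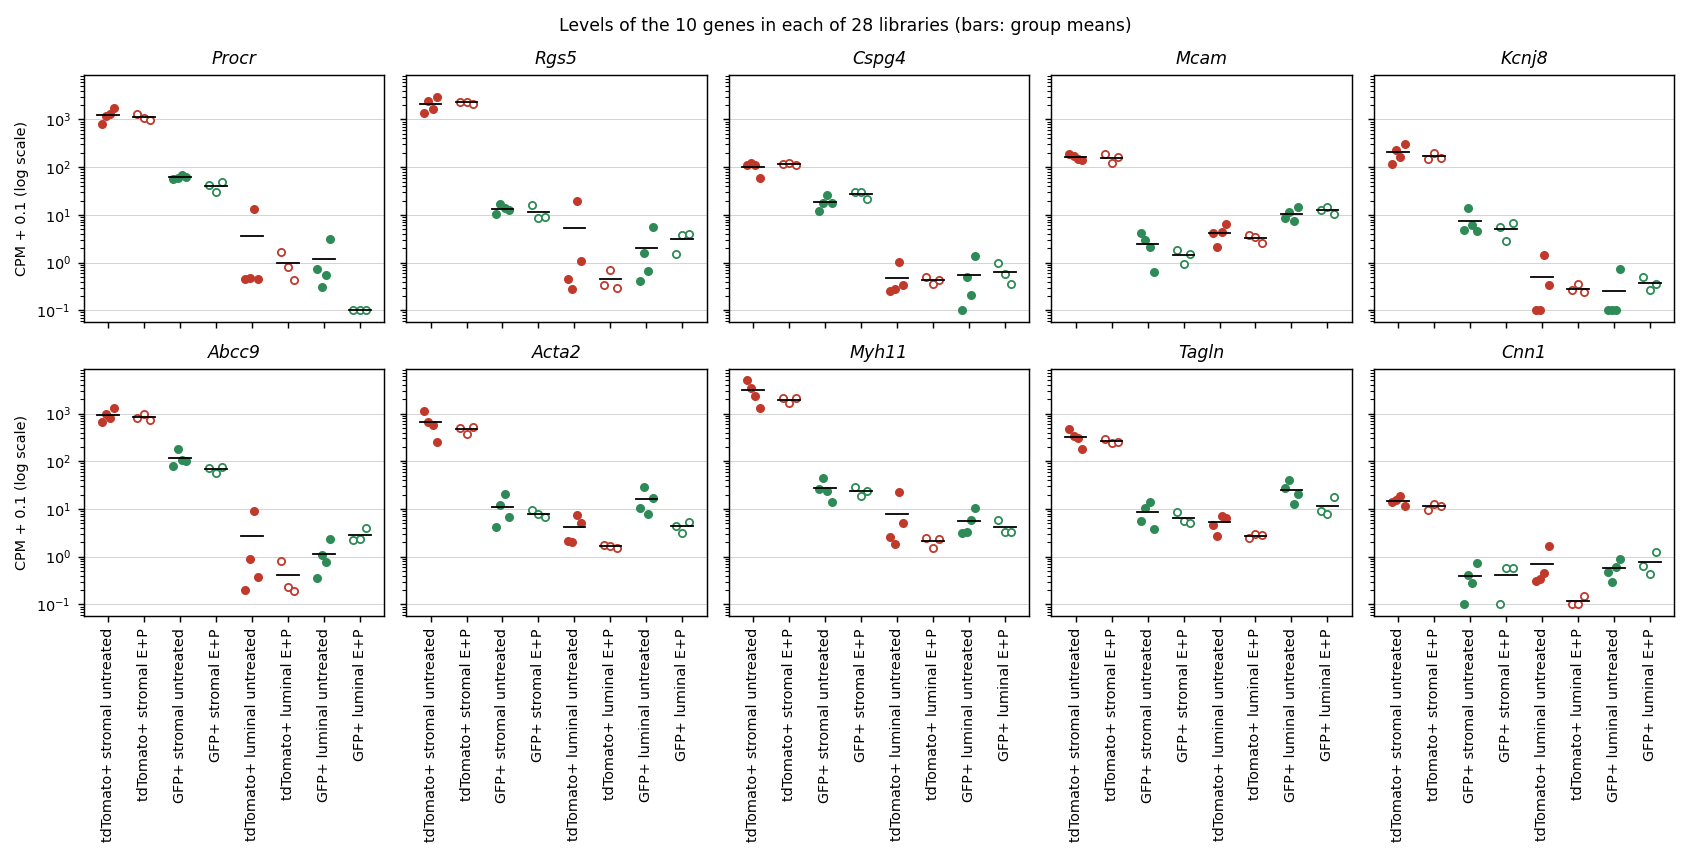
Level of each of the 10 genes (CPM + 0.1, log scale) in 28 libraries, with tdTomato+ in red, GFP+ in green, filled points for untreated and open points for E+P mice, and a bar at each group mean. Every tdTomato+ stromal library lies above every other library for all 10 genes, for example at 817 to 1726 CPM for Procr and at 9.19 to 18.65 CPM for Cnn1.

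Per kilobase of exon, the scale on which genes may be compared with each other, Procr had the highest mean level in tdTomato+ stroma, at 593 CPM per kb, before Rgs5 at 480, Myh11 at 340 and Acta2 at 260 CPM per kb. Tagln at 150 and Abcc9 at 107 CPM per kb followed. Kcnj8 was at 74.4, Mcam at 47.7, Cspg4 at 9.004 and Cnn1 at 4.86 CPM per kb. Within single libraries Procr stood above Rgs5 per kb in 7 of 7, by 1.04-fold to 1.75-fold, and above Myh11 in 6 of 7 (ratio 0.600 to 4.85), and Rgs5 above Myh11 in 6 of 7 (ratio 0.459 to 3.67). The length used joins all annotated exons of a gene, and which transcripts were expressed was not examined. The order of genes with close values depends on that length. In GFP+ stroma Procr again led, at 26.05 CPM per kb, and Abcc9 was next at 11.4 CPM per kb, while each of the other 8 genes stood at 4.32 CPM per kb or less.

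The order of the 8 groups was shared only at its top. For every gene both tdTomato+ stromal groups ranked first, with overlapping ranges between them and a gap to the group that followed. For Procr, GFP+ stroma came next, at a mean of 61.8 CPM in untreated and 41.1 CPM in E+P mice, and the luminal groups were last. For Acta2, Tagln, Mcam and Cnn1 a GFP+ luminal group took the third place instead. Tagln, for example, had a mean of 24.9 CPM in the GFP+ luminal group and of 8.41 CPM in the GFP+ stromal group of untreated mice.

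The genes around these members, from lists written for this tissue, moved in the same direction in part. Of 28 other mural genes tested, 20 were called higher and 4 lower in tdTomato+ stroma, with a median log2 fold change of 2.72. The share over all genes, here and for the lists that follow, was 21.3% higher and 20.6% lower. The summed level of these mural genes was not higher, at 6065 to 7845 CPM in tdTomato+ and 5369 to 12506 CPM in GFP+ stroma. The endothelin receptor Ednrb (8.47 ± 0.29, SE, n = 7, log2), the connexin Gja4 (8.17 ± 0.44), Higd1b (7.90 ± 0.48) and desmin, Des (6.88 ± 0.40), differed most. Des is also expressed by skeletal muscle, and that part was not tested. Pdgfrb, the receptor by which mural cells answer platelet-derived growth factor from endothelium, was not among those called. Its mean level was 644 ± 104 CPM in tdTomato+ and 653 ± 68.9 CPM in GFP+ stroma (SD, n = 7), a log2 difference of -0.00 ± 0.11 (SE), and the ranges of the subsets overlapped. Of 16 genes of the PDGF-B and Notch pathways, 10 were called higher and 3 lower, among them Notch3, a Notch receptor of mural cells (5.83 ± 0.17), the Notch targets Hey2 (4.91 ± 0.29) and Heyl (3.47 ± 0.16), and N-cadherin, Cdh2 (3.77 ± 0.21).

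Of 28 other contractile genes, 24 were called higher and 1 lower in tdTomato+ stroma (median log2 fold change 2.84). Leiomodin, Lmod1 (6.49 ± 0.47, SE, n = 7, log2), Synpo2 (6.19 ± 0.21), tropomyosin 2, Tpm2 (5.96 ± 0.45), and Ppp1r14a (5.18 ± 0.31), an inhibitor of myosin phosphatase, differed most. Tpm2 and some others of this list are also expressed by skeletal muscle, whose genes moved with the subset, and that part was not tested. Of 12 tested genes of the myocardin and serum response factor list, 9 were higher and 2 lower. Myocardin itself, Myocd, was at 10.2 to 36.9 CPM in tdTomato+ stroma and at 0 to 0.670 CPM in GFP+ stroma (log2 fold change 6.40 ± 0.54).

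The partners of Procr did not move as a group. Of 12 tested genes of the protein C, thrombin and fibrinolysis list, 2 were called higher and 6 lower in tdTomato+ stroma, with a median log2 fold change of -0.37. Thrombomodulin, Thbd, which activates protein C together with the receptor, was higher, at 965 ± 306 CPM against 275 ± 56.2 CPM (SD, n = 7; log2 fold change 1.84 ± 0.24, SE). The thrombin receptor F2r stood at 61.8 ± 11.2 CPM in tdTomato+ and 61.4 ± 28.5 CPM in GFP+ stroma (log2 difference 0.03 ± 0.23, SE, n = 7). The inhibitor Serpine2 was higher in tdTomato+ stroma (log2 fold change 2.39 ± 0.17, SE, n = 7), whereas both plasminogen activators, Plat (-2.94 ± 0.13) and Plau (-1.45 ± 0.15), were lower.

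The difference between the subsets was present in both treatments. In untreated mice 10 of 10 genes were called (28.5% of all genes, 14.9% higher), led by Rgs5 at a log2 fold change of 7.33 ± 0.31 (SE). In E+P mice 10 of 10 were called as well (28% of all genes, 13.9% higher), with log2 fold changes of 2.09 to 7.70. Procr differed by 4.37 ± 0.23 in untreated and by 4.80 ± 0.27 in E+P mice (SE, log2). The difference between these, tested as an interaction, was 0.43 ± 0.30 (edgeR adjusted p = 0.69).

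To see whether hormone altered these genes, E+P was compared with untreated mice within each subset. In tdTomato+ stroma 0 of 10 genes were called by edgeR, beside 0.124% of 17783 genes, 0 had an unadjusted p under 0.05, and the Wald test of DESeq2 called 0. The log2 changes ran from -0.63 ± 0.41 for Myh11 to 0.18 ± 0.24 for Cspg4 (SE, 3 against 4 mice, edgeR adjusted p = 0.49 to 0.98 over the 10 genes). Procr was at a mean of 1259 CPM in untreated and 1133 CPM in E+P mice, and the ranges overlapped. The spread between the untreated libraries was large for the smooth muscle genes.

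In GFP+ stroma 0 of 10 genes were called by edgeR (0.231% of all genes), and 3 had an unadjusted p under 0.05. Procr was at 56.0, 59.0, 68.75 and 63.3 CPM in untreated and at 43.1, 30.2 and 49.9 CPM in E+P mice. The groups did not overlap, and the exact permutation test gave p = 0.0286, the smallest that 3 against 4 mice allow, but the change of -0.58 ± 0.22 (log2, SE) missed the threshold over all genes (edgeR adjusted p = 0.39). Abcc9 was at 78.9, 179, 107 and 101 CPM in untreated and at 71.6, 56.6 and 76.2 CPM in E+P mice, again without overlap. Its change of -0.77 ± 0.27 (edgeR adjusted p = 0.33) passed only in the fit without a filter on low counts (adjusted p = 0.00087). Cspg4 differed the other way, by 0.59 ± 0.24 (edgeR adjusted p = 0.49). The interaction of E+P and subset called 0 of 10 genes by edgeR and by DESeq2 (0.045% of all genes), with 0 at an unadjusted p under 0.05.

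Between single tdTomato+ stromal libraries the members did not vary together. Procr, Rgs5, Kcnj8 and Abcc9 were each highest in untreated mouse 4 and lowest in untreated mouse 1, while Acta2, Myh11 and Tagln were each highest in untreated mouse 1 and lowest in untreated mouse 4. The ratio of Rgs5 to Myh11 counts, which no scaling can alter, was 0.274, 0.695, 0.729 and 2.20 in untreated mice 1 to 4 and 1.11, 1.42 and 1.03 in the E+P mice. It thus varied 8-fold, with both extremes in untreated mice. The ratio of Procr to Rgs5 counts varied only 1.69-fold, from 0.463 to 0.782, and that of Kcnj8 to Abcc9 only 1.36-fold, from 0.174 to 0.236.

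**Figure D2:**
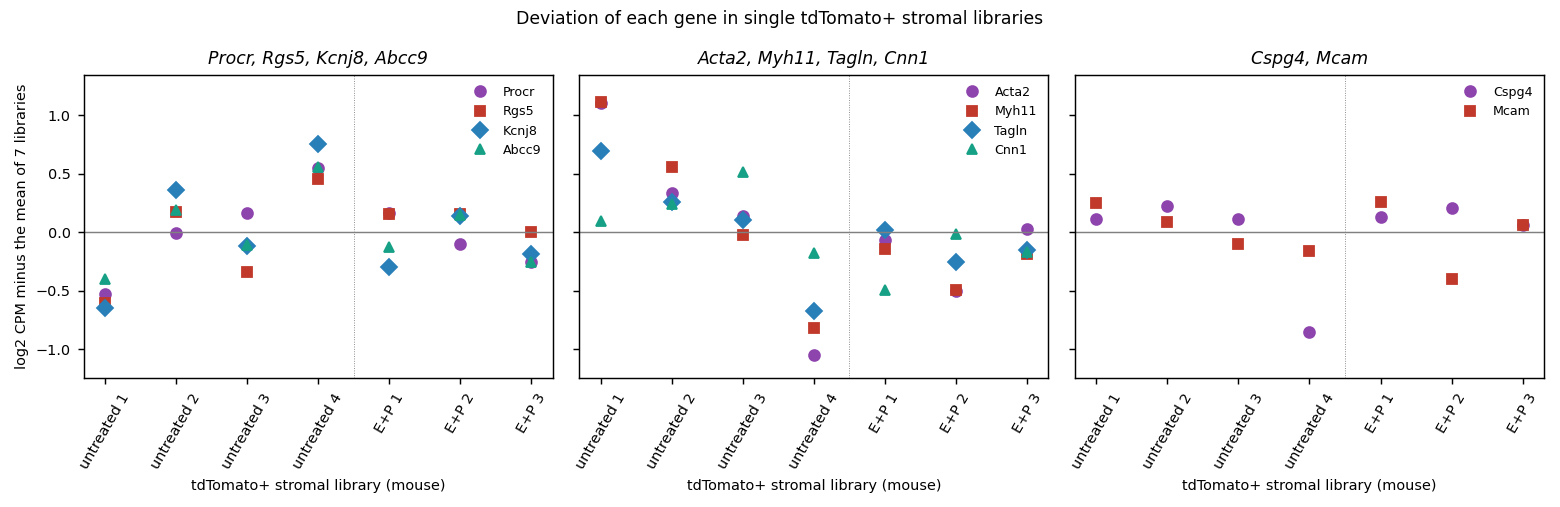
Deviation of each gene's log2 CPM from its mean over the 7 tdTomato+ stromal libraries, one point per gene and library, with untreated mice left and E+P mice right of the dotted line. Untreated mouse 1 is lowest for Procr, Rgs5, Kcnj8 and Abcc9 and highest for Acta2, Myh11 and Tagln, and untreated mouse 4 is the reverse.

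The SD of log2 CPM over the 7 libraries was 0.67 for Acta2 and 0.65 for Myh11, larger than for 92.4% and 91.6% of the 8425 genes with a mean of at least 10 CPM in tdTomato+ stroma. It was 0.34 for Procr, 0.36 for Rgs5, 0.46 for Kcnj8 and 0.32 for Abcc9, against a median of 0.29 over these genes. Within the 4 untreated mice alone the SD of Myh11 was 0.83 and that of Rgs5 0.48. Within the 3 E+P mice they were 0.19 and 0.09. The median over all genes was also larger in untreated (0.30) than in E+P mice (0.18), and Mcam was the reverse of Myh11 and Rgs5, at 0.19 and 0.34.

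Over the 7 libraries, Pearson's r among Procr, Rgs5, Kcnj8 and Abcc9 was 0.71 to 0.97 (6 pairs), among Acta2, Myh11 and Tagln 0.97 to 0.98 (3 pairs), and between these sets -0.85 to -0.63 (12 pairs). These sets were formed after seeing the values, so the numbers describe them only. Without untreated mouse 1 the r between the sets ran from -0.72 to -0.31, and without untreated mouse 4 from -0.77 to -0.39. Without both mice 9 of the 12 pairs had a positive r, whereas Acta2, Myh11 and Tagln still went together at 0.88 to 0.92. Among Procr, Rgs5, Kcnj8 and Abcc9 the r then ran from -0.30 to 0.90, with 4 of 6 pairs positive. The opposition of the sets and much of the agreement among these 4 genes thus rested on those mice. The agreement of the contractile genes did not.

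Procr was tested against each other member, as planned, and 0 of 9 relations passed an adjusted p of 0.05. The highest r were with Abcc9 (r = 0.80, exact permutation p = 0.0323, adjusted p = 0.11, rho = 0.71) and Kcnj8 (r = 0.76, exact permutation p = 0.0468, adjusted p = 0.11, rho = 0.61). Rgs5 followed at r = 0.71 (exact permutation p = 0.0732, adjusted p = 0.11, rho = 0.61). The lowest was with Acta2 (r = -0.80, exact permutation p = 0.0375, adjusted p = 0.11, rho = -0.54). Without the 2 libraries farthest from the median of Procr, r fell to 0.07 with Abcc9, -0.18 with Kcnj8 and -0.30 with Rgs5 and rose to 0.24 with Acta2. The relations of Procr to these genes therefore rested on 2 of the 7 libraries.

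**Figure D3:**
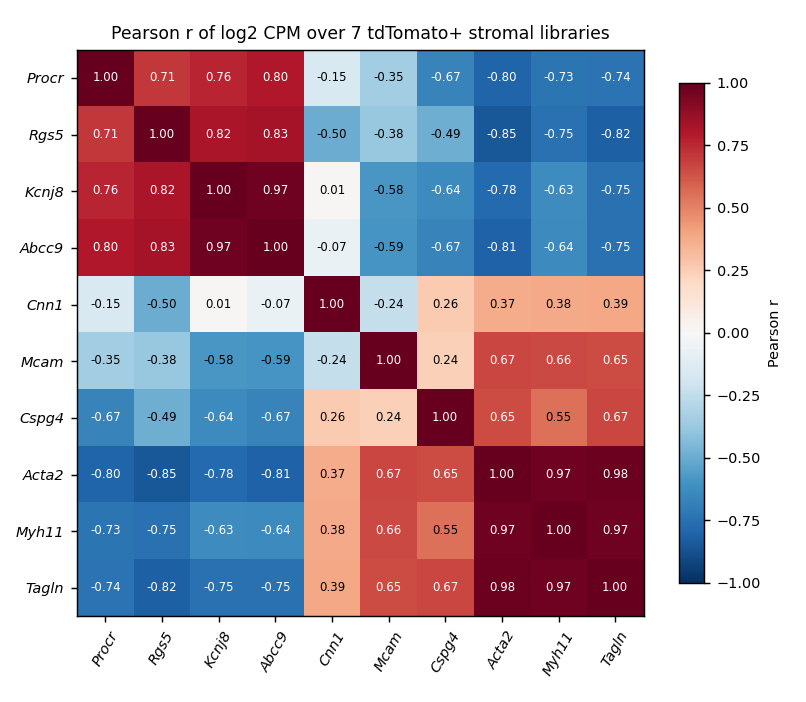
Pearson's r of log2 CPM between each pair of the 10 genes over the 7 tdTomato+ stromal libraries, from blue (-1) to red (1). The block of Procr, Rgs5, Kcnj8 and Abcc9 holds 0.71 to 0.97, the block of Acta2, Myh11 and Tagln 0.97 to 0.98, and the field between them -0.85 to -0.63.

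Some members left the group their name would give them. Cspg4, counted among the pericyte genes, had an r of -0.67 to -0.49 with Procr, Rgs5, Kcnj8 and Abcc9, which turned to 0.26 to 0.87 without untreated mouse 4, where Cspg4 was 58.1 CPM against 109 to 122 CPM in the other 6 libraries. Mcam went with Acta2, Myh11 and Tagln at r of 0.65 to 0.67, and still at 0.51 to 0.64 without both untreated mice 1 and 4. Cnn1, counted among the smooth muscle genes, had an r of only 0.37 to 0.39 with Acta2, Myh11 and Tagln. At 118 to 281 counts per library, Cnn1 also carried the largest counting error.

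The other contractile genes mostly went with Myh11, and the other mural genes were divided. Of 25 further contractile genes at 10 CPM or more, 23 had a positive r with Myh11 and 5 with Rgs5. Of 27 further mural genes, 18 had a positive r with Rgs5 and 13 with Myh11, with a median r of 0.35 and -0.00. These r come from the same 7 libraries, with untreated mice 1 and 4 at the extremes of Rgs5 and Myh11. No share over all genes was set beside the counts. Myosin light chain kinase, Mylk, was at 1118 CPM in untreated mouse 1 and 366 CPM in untreated mouse 4, and Myocd at 36.9 and 10.2 CPM. Pdgfrb was at 467 and 773 CPM and Higd1b at 11.7 and 32.5 CPM in the same libraries. Other mural genes went the other way, Des at 714 and 378 CPM and Notch3 at 803 and 687 CPM. The sum of skeletal muscle genes was 20252 and 4913 CPM in these libraries, and its part in the level of Des was not tested. Synpo2 was an exception among the contractile genes, with an r of 0.92 with Rgs5.

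Skeletal muscle genes also moved between these libraries, and their sum was 20252, 24688, 8332 and 4913 CPM in untreated mice 1 to 4 and 22172, 42657 and 13620 CPM in the E+P mice. Of 10 relations of the members to this sum, 0 passed an adjusted p of 0.05. The nearest was Cspg4 (r = 0.79, rho = 0.93, exact permutation p = 0.00734, adjusted p = 0.0734), which kept an r of 0.85 without the 2 libraries farthest from the median of the sum. Procr had an r of -0.60 (exact permutation p = 0.154), Myh11 of 0.35 and Rgs5 of -0.12. In the scaling that left the skeletal muscle genes out, every relation of Procr kept its sign.

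The genes whose pattern was most like that of Procr over all 28 libraries were Gm43834 (r = 0.984), the potassium channel subunit Kcne4 (0.979), the transcription factor Foxf1 (0.978), Daam2 (0.978) and the nucleotide receptor P2ry14 (0.976), among 8424 genes. Such r include the gap between tdTomato+ stroma and the other subsets. Kcnj8 was the nearest member, at rank 31 (0.960), and Rgs5 stood at rank 286 (0.909). Over the 7 tdTomato+ stromal libraries the nearest genes to Procr were Mirg, Prr3, Ftsj3, Gm43947 and Elmod2 (0.980 to 0.963), and Abcc9 was the nearest member, at rank 245. Those nearest to Rgs5 were Gm37052, Kcnq5, Pdgfrb, Vsig2 and Sash1 (0.992 to 0.970). Those nearest to Myh11 were Myl9, Mylk, Ctnna3, Sort1 and Mark1 (0.982 to 0.979), with Tagln at rank 9 and Acta2 at rank 11. The ranks come from 7 points and are descriptions.

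In luminal cells the members were low, and untreated mouse 3 stood apart in its tdTomato+ library. There Procr was at 12.9 CPM, against 0.333 to 1.60 CPM in the other 6 tdTomato+ luminal libraries. Rgs5 was at 19.2 against 0.183 to 0.969 CPM, and Abcc9 at 9.035 against 0.0951 to 0.791 CPM. As a share of the level in the tdTomato+ stroma of the same mouse, these were 0.981% for Procr, 1.14% for Rgs5 and 1.11% for Abcc9. Kcnj8 at 0.821%, Cspg4 at 0.831% and Myh11 at 0.965% lay close by, as did Thbd at 0.835%, Pdgfrb at 0.812% and the skeletal muscle genes Acta1 at 1.15% and Ckm at 0.976%. This library thus held genes of tdTomato+ stroma, skeletal muscle genes among them, at much the same share. The GFP+ luminal library of untreated mouse 4 also held Acta1 and Ckm, at 2.17% and 1.69% of the tdTomato+ stromal level of that mouse, with Procr at 0.173% and Rgs5 at 0.183%.

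**Figure D4:**
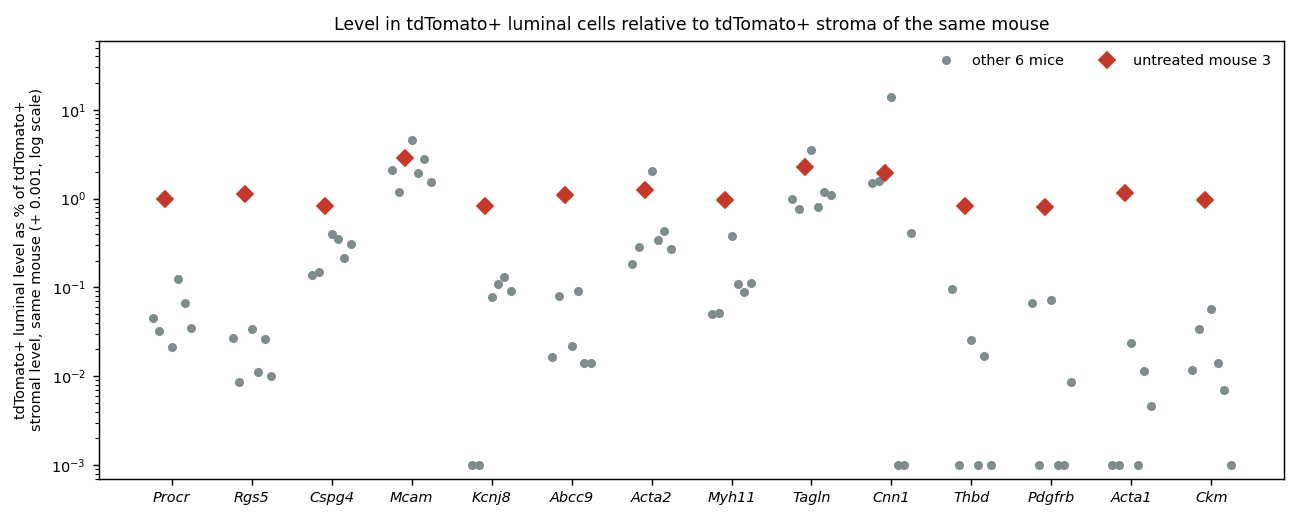
Level of the 10 genes and of Thbd, Pdgfrb, Acta1 and Ckm in tdTomato+ luminal cells as a percentage of the level in tdTomato+ stroma of the same mouse (+ 0.001, log scale), with untreated mouse 3 as red diamonds and the other 6 mice as grey points. For 10 of these 14 genes the red diamonds form a level row between 0.812% and 1.15%, above the other mice, and Mcam, Acta2, Tagln and Cnn1 do not follow it.

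Between tdTomato+ and GFP+ luminal cells, 3 of 9 tested genes were called by edgeR, all lower in tdTomato+ cells (34.7% of 16538 genes were called, 15.7% lower). Kcnj8 had too few counts to be tested. Procr went the other way but missed the threshold (log2 fold change 4.32 ± 1.61, SE, edgeR adjusted p = 0.046), with 0 counts in 3 GFP+ libraries. Mcam was at 2.01 to 6.44 CPM in tdTomato+ and 7.37 to 14.85 CPM in GFP+ luminal cells (log2 fold change -1.63 ± 0.24, SE, n = 7 mice, edgeR adjusted p = 7.9e-05). Tagln was at 2.32 to 7.01 against 7.81 to 40.1 CPM (-2.15 ± 0.30, edgeR adjusted p = 7.2e-05). Both ranges were apart.

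Acta2 was at 1.43 to 7.23 CPM in tdTomato+ and 3.01 to 28.4 CPM in GFP+ luminal cells (-1.68 ± 0.36, edgeR adjusted p = 0.0017). It was lower in tdTomato+ cells in 7 of 7 mice, but its call was lost without E+P mouse 1 (-1.73, adjusted p = 0.01) or E+P mouse 3 (-1.57, adjusted p = 0.017). With the mouse as a block its adjusted p was 0.011 and that of Cnn1, at a log2 fold change of -2.40, was 0.0071. Without untreated mouse 3, 5 genes were called, Rgs5 (-2.58, adjusted p = 0.0060) and Abcc9 (-2.42, adjusted p = 0.0086) being added. The sum of basal cell genes was 31.0 to 168 CPM in tdTomato+ and 193 to 291 CPM in GFP+ luminal cells. Krt14 was at 0.413 to 3.37 and 1.46 to 12.9 CPM, and Krt5 at 0.0476 to 0.651 and 0 to 1.10 CPM, both with overlapping ranges. Within GFP+ luminal cells Krt14 had a mean of 3.79 CPM in untreated and 9.55 CPM in E+P mice. The means in the same groups were 15.96 and 4.21 CPM for Acta2, 24.9 and 11.3 CPM for Tagln, and 10.6 and 12.6 CPM for Mcam. The part of basal cells in the levels of Acta2, Mcam and Tagln was not tested.

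The direction of these 3 genes was thus opposite in the lineages. The stromal minus the luminal difference, a test added after seeing the data in a fit of all 28 libraries, was 8.14 ± 0.40 for Mcam, 7.60 ± 0.58 for Acta2 and 7.50 ± 0.46 for Tagln (SE, log2, edgeR adjusted p = 1.4e-13 to 5.2e-10). The 3 genes were picked for their opposite directions in the same libraries, so these p-values are no separate support. The stromal difference given above enters every value of this test. Of the 9 genes that could be tested in luminal cells, 8 were called, all of them higher (33.2% of 19569 genes were called, 17% higher). Kcnj8 is not counted, since it passed the filter on low counts only through the stroma. Procr was not called (0.39 ± 1.75), and its luminal values were mostly near or at 0. The call of Cspg4 (2.73 ± 0.62) was lost without untreated mouse 4 (1.98, adjusted p = 0.021), without E+P mouse 1 (2.56, adjusted p = 0.011) and in limma-voom (2.28, adjusted p = 0.026).

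**Figure D5:**
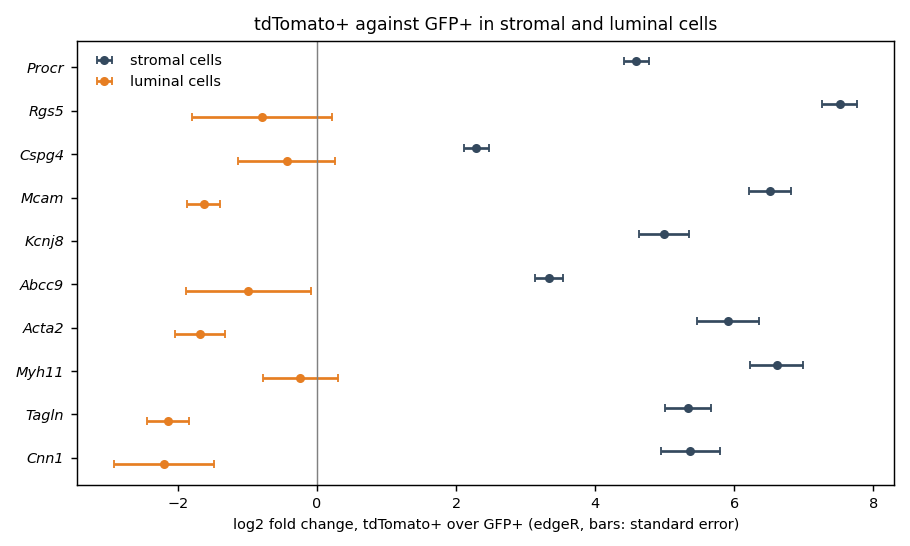
Log2 fold change of tdTomato+ over GFP+ cells (edgeR, bars show the SE) in stromal (dark blue) and luminal cells (orange). All 10 stromal values lie between 2.29 and 7.52, while Mcam, Acta2 and Tagln lie between -2.15 and -1.63 in luminal cells; Kcnj8 was not tested there and Procr, at 0 counts in 3 GFP+ libraries, is not drawn.

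For E+P against untreated luminal cells, edgeR called 0 of 9 tested genes in tdTomato+ (14.1% of all genes; 5 with an unadjusted p under 0.05) and 0 of 9 in GFP+ cells (5.96%; 3 with an unadjusted p under 0.05). DESeq2 called 1 gene in each. In GFP+ luminal cells this was Acta2, at 10.45, 28.4, 7.88 and 17.1 CPM in untreated and 4.28, 3.01 and 5.33 CPM in E+P mice (log2 change -1.91 ± 0.51, SE, edgeR adjusted p = 0.023, exact permutation p = 0.0571). In tdTomato+ luminal cells it was Cnn1, which had 4, 4, 5 and 41 counts in untreated and 0, 0 and 1 counts in E+P mice, too few for a fold. Procr had 10, 2, 8 and 38 counts in untreated and 0 counts in each of the 3 E+P GFP+ luminal libraries, and 0 counts allow up to 0.138 to 0.229 CPM at their depths.

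Between the lineages, tdTomato+ stroma was higher than tdTomato+ luminal cells for 10 of 10 genes (59.3% of all genes were called, 31.9% higher), with log2 fold changes of 5.44 for Mcam to 10.66 for Rgs5. Between GFP+ stroma and GFP+ luminal cells, 8 of 10 were called (52.5% of all genes, 27.7% higher and 24.8% lower). Both counts include Kcnj8, which passed the filter on low counts only through the stroma. Procr, Rgs5, Cspg4, Kcnj8, Abcc9 and Myh11 were higher in the stroma, and Mcam (-2.70 ± 0.28, SE, n = 7) and Tagln (-1.20 ± 0.30) were lower. The call of Rgs5, at 2.35 ± 0.68 (edgeR adjusted p = 0.0047), was lost when any of the 3 E+P mice was left out (adjusted p = 0.019 to 0.049) and when libraries were scaled by their totals alone (1.97, adjusted p = 0.014) or no filter on low counts was used (2.29, adjusted p = 0.014). Tagln lost its call without E+P mouse 3 (adjusted p = 0.031). Acta2, at 0.17, and Cnn1, at -0.89, did not differ beyond their error (edgeR adjusted p = 0.73 and 0.17).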

How the data were processed

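GFP+ and tdTomato+ stromal and luminal cells of 7 mice gave 28 total RNA libraries, made with a stranded low-input kit from RNA of varying integrity. The authors aligned reads with STAR (2.5.2a) to GRCm38.p5 and deposited raw counts per gene; the counting tool, its strand setting and the GENCODE release are not given in the sources used here. Symbols, positions and exon lengths were taken from the annotation by Ensembl ID. The values per library are CPM from these counts with edgeR's TMM factors over all 28 libraries, log2 CPM with a prior count of 2.

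Differences were tested with edgeR (4.0.16, R 4.3.3) by quasi-likelihood after filterByExpr, with the 4 groups of a lineage in 1 fit and all 28 libraries in 1 fit for comparisons between lineages, and Benjamini-Hochberg adjustment over all genes with calls at 0.01. The SE is the absolute log2 fold change divided by the root of F. Relations over the 7 tdTomato+ stromal libraries were tested by exact two-sided permutation, adjusted over 9 or 10 relations with a threshold of 0.05. Alternatives were DESeq2 (1.42.0), limma-voom (limma 3.58.1), other scalings and filters, the mouse as a block and each mouse left out. For E+P against untreated cells the block was the replicate number, which joins different animals. Scripts were tested on simulated data. Library totals of 8623383 to 24583803 counts limit precision at low levels.

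The methods state that subsets were sorted from individual mice, and the titles give 4 libraries each a common sample number, which was taken as the animal. The mean correlation of the deviations of libraries with a common number from the group means was 0.0496 between stromal and 0.157 between luminal subsets, against -0.0194 and -0.0605 for different animals. The members and gene lists were chosen with earlier results of these data known. Named besides the members were up to 4 genes per list, those called with the largest change at 10 CPM or more and on one side in every mouse, the markers Pdgfra, Pdgfrb, Pecam1, Cdh5, Krt14, Krt5, Ckm, Acta1, Actc1, Actg2, Kcnj11, Abcc8, Thbd, F2r, Myocd and Notch3, genes overlapping a member, and the 5 genes nearest in pattern to Procr, Rgs5 or Myh11. The test of stroma against luminal cells for the tdTomato+ to GFP+ difference was added after seeing the data.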

Additional observations from a re-analysis of the deposited data

Results flagged for a closer look

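Each gene was looked at in each group of 4 untreated libraries, which gave 40 sets of values. In 11 of the 40 sets, a single library stood far from the other 3 relative to the range of its set. Chance gives this in about 1 set in 20 if the sets are independent. The sets of different genes share the same libraries, so that rate cannot judge the 11 flagged sets. The tdTomato+ luminal library of untreated mouse 3 held 6 of these, as the highest of its group: Procr at 12.94 CPM, Rgs5 at 19.23 CPM, Cspg4 at 0.9396 CPM, Kcnj8 at 1.373 CPM, Abcc9 at 9.035 CPM and Myh11 at 22.33 CPM. The same library held Acta1 and Ckm at 1.15% and 0.976% of their level in the tdTomato+ stroma of that mouse. The part of carried-over stromal RNA or cells was not tested.

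The GFP+ luminal library of untreated mouse 4 was the highest of its group for Procr, at 2.986 CPM, and for Kcnj8, at 0.6287 CPM or 8 counts. That library held Acta1 at 11.16 CPM and Ckm at 3.458 CPM, which were 2.17% and 1.69% of their level in the tdTomato+ stroma of that mouse, against 0.173% for Procr and 0.206% for Kcnj8. Cnn1 was highest in the tdTomato+ luminal library of untreated mouse 4, at 1.590 CPM. Kcnj8 was highest in the GFP+ stroma of untreated mouse 2, at 13.64 CPM. Cspg4 was lowest in the tdTomato+ stroma of untreated mouse 4, at 58.07 CPM, in the library with the lowest sum of skeletal muscle genes (4913 CPM).

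The difference between tdTomato+ and GFP+ cells went in opposite directions in stromal and luminal cells for 3 genes. The stromal minus the luminal difference was 8.14 for Mcam, 7.60 for Acta2 and 7.50 for Tagln on the log2 scale, each called by edgeR in the added test (adjusted p = 1.4e-13 to 5.2e-10). These genes were picked for their opposite directions in the same libraries, so the p-values are no separate support.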

How the results depend on the processing

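The count of members called stayed at 10 of 10 for tdTomato+ against GFP+ stroma, in both treatments together and in each, and for tdTomato+ stroma against luminal cells, in every alternative run, and at 0 for E+P in tdTomato+ stroma and its interaction with the subset. In GFP+ stroma, E+P called 1 gene (Abcc9) without the filter on low counts and 0 with any mouse left out. Between tdTomato+ and GFP+ luminal cells 5 genes were called at an adjusted p of 0.05 and 2 to 5 with a mouse left out. Those added at 0.05 were Cnn1, lower in tdTomato+ cells (-2.20, edgeR adjusted p = 0.022), and Procr, higher in them (4.32, edgeR adjusted p = 0.046). With the mouse as a block Acta2 was lost (-1.66, edgeR adjusted p = 0.011) and Cnn1 gained (-2.40, edgeR adjusted p = 0.0071). No other call changed with a block. For E+P against untreated cells that block was the replicate number, which joins different animals, so it says nothing on pairing by mouse. For E+P in tdTomato+ luminal cells 1 gene was called at 0.05, with library size only, by DESeq2 and without the filter, and 0 to 1 with a mouse left out; in GFP+ luminal cells 1 was called at 0.05 and by DESeq2, and 0 to 1 with a mouse left out. The call for GFP+ stroma against luminal cells ran from 6 to 8 genes and that of the stromal minus the luminal difference from 7 to 9 with a mouse left out. Every count between the lineages in this paragraph includes Kcnj8. Of the relations to the skeletal muscle sum 0 to 1 passed with a mouse left out, the 1 being Cspg4 without untreated mouse 3 (adjusted p = 0.0417). Some values changed sign with a mouse left out. These were the log2 change with E+P in tdTomato+ stroma of Procr (-0.32 to 0.05), Rgs5 (-0.04 to 0.33), Cspg4 (-0.00 to 0.27), Mcam (-0.18 to 0.14) and Abcc9 (-0.31 to 0.03), and the r of Procr with Cspg4 (-0.80 to 0.26) and Cnn1 (-0.42 to 0.04, and 0.04 with library size only). They were also the r of the skeletal muscle sum with Rgs5 (-0.34 to 0.49), Mcam (-0.26 to 0.90, and -0.20 with library size only), Kcnj8 (-0.56 to 0.30), Abcc9 (-0.57 to 0.50), Acta2 (-0.27 to 0.73), Myh11 (-0.09 to 0.73), Tagln (-0.16 to 0.74) and Cnn1 (-0.41 to 0.26). None of these had passed a test. The cause was not tested.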

Other observations

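Thbd followed Procr in part between the tdTomato+ stromal libraries (r = 0.66, n = 7, a description), from 376 CPM in untreated mouse 1 to 938 CPM in untreated mouse 4 and up to 1359 CPM. Markers of skeletal muscle satellite cells were also present in tdTomato+ stroma, with Pax7 at 123 ± 39.0 CPM (SD, n = 7) against 0.0131 CPM in GFP+ stroma. Lymphatic endothelial genes were called higher in tdTomato+ stroma for 5 of 6, Lyve1 among them at 36.9 ± 28.3 CPM (SD, n = 7). The endothelial list had 12 of 14 called higher and 1 lower, although CD31+ cells had been depleted. Of the other lists, 16 of 16 skeletal muscle, 6 of 6 satellite cell and 6 of 8 haematopoietic genes were called higher. This also held for 4 of 6 actins, 3 of 8 basal, 1 of 3 adipocyte and 0 of 9 luminal genes. Of 8 Schwann cell genes 3 were higher and 2 lower, and 10 of 10 fibroblast genes were lower. The share over all genes was 21.3% higher and 20.6% lower. Some of these genes, such as Pax7 and Ckm (0 to 0.148 CPM in GFP+ stroma), passed the filter on low counts only through tdTomato+ stroma. The 4 of 4 genes called higher for the ATP-sensitive potassium channels include the members Kcnj8 and Abcc9. Kcnj11 and Abcc8, at most 0.0917 and 0.183 CPM in GFP+ stroma, also passed only through tdTomato+ stroma.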
